A study of Homo sapiens with 4 samples.

Results

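The genes described here are 10 members of the interleukin 1 and interleukin 6 cytokine families: the ligands IL6, IL11, LIF and CLCF1, the ligands IL1A, IL1B and IL33, the receptor antagonist IL1RN, and the receptor chains IL1R1 and IL1RAP. Members were read through the probe sets that carry the member as their only gene symbol in the platform annotation, which gave 18 of 54613 probe sets and 9 of the 10 genes. CLCF1 had no probe set under this rule and is not analysed here. Of the 9 genes, 3 had 1 probe set, 5 had 2 and IL1RN had 5. The genes were chosen with earlier results of the same induced against control comparison known, so their levels and differences are given as a description with standard errors. Counts of members by limma p are printed beside the share over all probe sets, and nothing is read from them.

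The samples were 4 cultures of LN-229, a long-used line grown from a human glioblastoma, each on 1 Affymetrix 3' expression array. The control group was 2 cultures without treatment. The induced group was 2 cultures given doxycycline for 48 h to express WIF1, a secreted inhibitor that captures WNT ligands outside the cell. The labels call the replicates biological, and neither the expression vector nor whether the line is 1 clone is given in the sources used here. No culture had doxycycline without WIF1, so the drug and WIF1 cannot be told apart. The comparison asks what WIF1 expression does to the transcriptome of these cells.

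Interleukin 6 family cytokines share the signalling chain IL6ST, which IL6 and IL11 reach through IL6R and IL11RA and which LIF and CLCF1 join with LIFR, and JAK kinases then activate STAT3, whose targets include the feedback inhibitor SOCS3. Interleukin 1 ligands bind IL1R1, which recruits IL1RAP, and the pair signals through MYD88 and IRAK kinases to NF-kappaB, a factor that in turn activates genes such as IL6 and CXCL8. IL1RN occupies IL1R1 without recruiting IL1RAP, and so blocks the signal. In glioblastoma, IL6 and IL1 are known as autocrine and paracrine signals between tumour cells and the myeloid cells around them.

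Upstream sequences of IL6 and IL1A are shown because these ligands had the largest differences among the members and both are known targets of inflammatory transcription factors. They are the 250 bases before the start site in the RefSeq promoter table (GRCh38.p14), read 5' to 3' on the strand of the gene. Capitals mark matches to 3 motifs searched on both strands: GGANTTTCC for NF-kappaB, TGANTCA for AP-1 and TTGCNNAA for C/EBP, where N is any base. No match overlapped another. The IL6 window lies at chr7:22726950-22727199 on the plus strand, and the IL1A window at chr2:112784494-112784743 on the minus strand.
IL6: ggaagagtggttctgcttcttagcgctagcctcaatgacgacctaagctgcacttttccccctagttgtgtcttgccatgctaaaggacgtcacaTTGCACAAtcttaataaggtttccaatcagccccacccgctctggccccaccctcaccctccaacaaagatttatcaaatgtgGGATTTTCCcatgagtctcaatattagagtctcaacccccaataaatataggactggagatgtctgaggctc
IL1A: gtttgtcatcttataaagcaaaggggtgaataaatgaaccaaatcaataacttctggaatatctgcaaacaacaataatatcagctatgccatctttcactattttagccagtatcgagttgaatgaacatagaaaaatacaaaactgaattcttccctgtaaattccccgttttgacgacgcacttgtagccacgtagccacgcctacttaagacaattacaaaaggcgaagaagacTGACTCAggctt

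The IL6 window held 1 NF-kappaB match, GGATTTTCC, from 72 to 64 bases before the start, and 1 C/EBP match, TTGCACAA, from 155 to 148 bases before it. The IL1A window held neither but had 1 AP-1 match, TGACTCA, from 12 to 6 bases before the start. The other member windows with a match were those of IL11 with TGAGTCA for AP-1 (96 to 90 bases before the start), IL1RN with TGAGTCA at the first of its 3 starts (223 to 217 bases before it), IL1B with TTGCAAAA for C/EBP (215 to 208 bases before it), and the second IL1A start, whose window overlaps the one shown. That last window held 2 AP-1 matches, TGACTCA from 105 to 99 bases before its start, which is the match shown above, and TGAGTCA from 55 to 49 bases before it. Among all 35116 windows in the table, 1.45% held the NF-kappaB motif, 6.57% the AP-1 motif and 9.05% the C/EBP motif. The 3 motifs were chosen with the sequences seen, so nothing is read from the matches beside these shares. Windows were found for 8 of the 10 genes, 15 windows in all.

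IL6 had the largest difference of the interleukin 6 family. Its probe set 205207_at had log2 intensities of 7.07 and 7.29 in control arrays against 8.15 and 8.23 in induced ones. Both induced values lay above both controls, by at least 0.86 log2 units. The gap between replicates was 0.21 in the controls and 0.077 after induction, and the difference of the means was 1.01 log2 units (SE 0.088, n = 2 per group), or 2.01-fold. Among all probe sets this was the difference of rank 4 from the top. Leaving out any 1 array kept it between 0.90 and 1.12.

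IL11, which acts through IL11RA and IL6ST, was read by 2 probe sets, both higher after induction. The brighter, 206924_at, was at 9.44 in either control array against 9.67 and 9.63 in induced ones, a difference of 0.21 (SE 0.044, n = 2 per group). The dimmer, 206926_s_at, was at 8.28 and 8.24 in control arrays against 8.55 and 8.38 in induced ones, again a difference of 0.21 (SE 0.071, n = 2 per group). In both probe sets the groups did not overlap, and the fold differences were 1.16 and 1.15. Leaving out 1 array kept 206924_at between 0.19 and 0.23, but 206926_s_at was at 0.13 without induced replicate 1.

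LIF, which signals through LIFR and IL6ST, was bright and differed by little between groups. Its probe set 205266_at was at 10.04 and 10.05 in control arrays against 10.19 and 10.22 in induced ones. Replicates lay within 0.030 of each other, and the difference was 0.16 (SE 0.040, n = 2 per group), or 1.12-fold. The mean of LIF was at percentile 92.9 among all probe sets, that of the brighter IL11 set at 89.6 and that of IL6 at 73.2. These percentiles place a probe set on the array and do not rank transcripts, because probe sets bind with different strength.

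**Figure D1:**
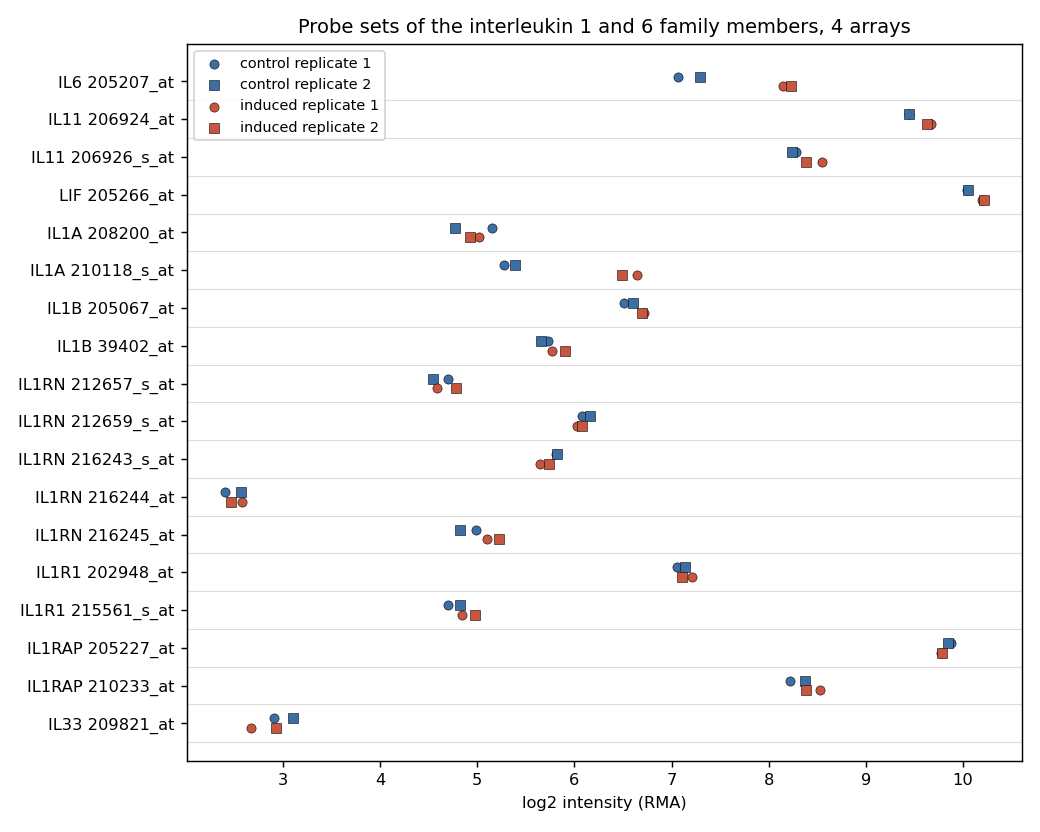
Log2 intensity (horizontal axis) of the 18 member probe sets (rows) on each array, with controls in blue, induced arrays in red, circles for replicate 1 and squares for replicate 2. IL6 and the IL1A set 210118_s_at are the rows with a wide gap between colours, with induced values of 8.15 and 8.23 and of 6.64 and 6.49.

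IL1A, a ligand active as its precursor and released by damaged cells, gave unlike values in its 2 probe sets. In 210118_s_at it was at 5.28 and 5.39 in control arrays against 6.64 and 6.49 in induced ones, a difference of 1.23 (SE 0.099, n = 2 per group), or 2.34-fold. The groups were 1.10 log2 units apart at their nearest values, and the difference ranked 2 among all probe sets. In 208200_at it was at 5.15 and 4.77 in control arrays against 5.02 and 4.93 in induced ones, a difference of 0.01 (SE 0.15, n = 2 per group). There the induced values lay between the controls, which were 0.38 apart, and the difference was 0.20 without control replicate 1 and -0.18 without control replicate 2.

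The disagreement between the IL1A probe sets was larger than the spread of either. Within each array, 210118_s_at exceeded 208200_at by 0.13 and 0.62 in the controls and by 1.62 and 1.56 after induction. Both sets lay below the median of all probe sets, at the 46.1 and 28.2 percentiles. The mean of the 2 sets gave a difference of 0.62, against 1.23 in 210118_s_at alone and 0.01 in 208200_at alone. Whether IL1A differed between groups thus depended on the probe set read. By the array maker's naming, the suffix _s_at is used for sets that may match more than 1 transcript, and probe positions were not used here.

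IL1B, the secreted ligand that CASP1 cuts from its precursor, was higher by a little in both of its probe sets. In 205067_at it was at 6.51 and 6.60 in control arrays against 6.72 and 6.70 in induced ones, a difference of 0.15 (SE 0.078, n = 2 per group). In 39402_at it was at 5.73 and 5.66 in control arrays against 5.77 and 5.90 in induced ones, a difference of 0.14 (SE 0.096, n = 2 per group). The groups did not overlap in either set, but at their nearest values they were only 0.098 and 0.036 apart. Without induced replicate 2 the difference in 39402_at was 0.072.

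IL33, an alarmin held in the nucleus whose receptor is IL1RL1 with IL1RAP, was dim. It read 2.91 and 3.10 in control arrays against 2.67 and 2.93 in induced ones, with its mean at percentile 5.30 among all probe sets. The groups overlapped, and the difference of -0.20 (SE 0.13, n = 2 per group) was below the 0.26 gap between the induced replicates. It was -0.11 without control replicate 2 and -0.073 without induced replicate 1, but -0.30 without control replicate 1 and -0.33 without induced replicate 2.

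The antagonist IL1RN had 5 probe sets without a common direction. The highest difference was 0.26 (SE 0.11, n = 2 per group) in 216245_at, with 4.99 and 4.82 in control arrays against 5.10 and 5.22 in induced ones. The lowest was -0.12 (SE 0.090, n = 2 per group) in 216243_s_at, with 5.81 and 5.82 in control arrays against 5.65 and 5.74 in induced ones. In these 2 sets the groups were apart in opposite directions. The brightest set, 212659_s_at, differed by -0.07 (SE 0.086) and its nearest induced and control values by only -0.0030, while 212657_s_at at 0.06 (SE 0.12) and 216244_at at 0.04 (SE 0.11) overlapped. Averaged over the 5 sets IL1RN differed by 0.04. Leaving out 1 array turned the sign of 212657_s_at (-0.029 to 0.16) and of 216244_at (-0.044 to 0.13).

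The receptor chain IL1R1 was at 7.06 and 7.14 in control arrays against 7.21 and 7.11 in induced ones in its brighter probe set 202948_at, where the groups overlapped and the difference was 0.06 (SE 0.076, n = 2 per group). Its dim set 215561_s_at was at 4.70 and 4.82 in control arrays against 4.84 and 4.98 in induced ones, a difference of 0.15 (SE 0.11, n = 2 per group) with the nearest values 0.018 apart. Leaving out 1 array gave 0.012 to 0.11 in the first set and 0.081 to 0.22 in the second.

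IL1RAP, the chain shared by the IL1 and IL33 receptors, was read by 2 bright probe sets that differed in sign. The brighter, 205227_at, was at 9.88 and 9.84 in control arrays against 9.77 and 9.78 in induced ones, a difference of -0.08 (SE 0.042, n = 2 per group). The other, 210233_at, was at 8.22 and 8.37 in control arrays against 8.53 and 8.38 in induced ones, a difference of 0.16 (SE 0.078, n = 2 per group). In each set the groups did not overlap, the first with controls higher and the second with controls lower, and the average over both was 0.04. In 210233_at the nearest values were 0.019 apart, and the difference was 0.093 without control replicate 1 and 0.090 without induced replicate 1.

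**Figure D2:**
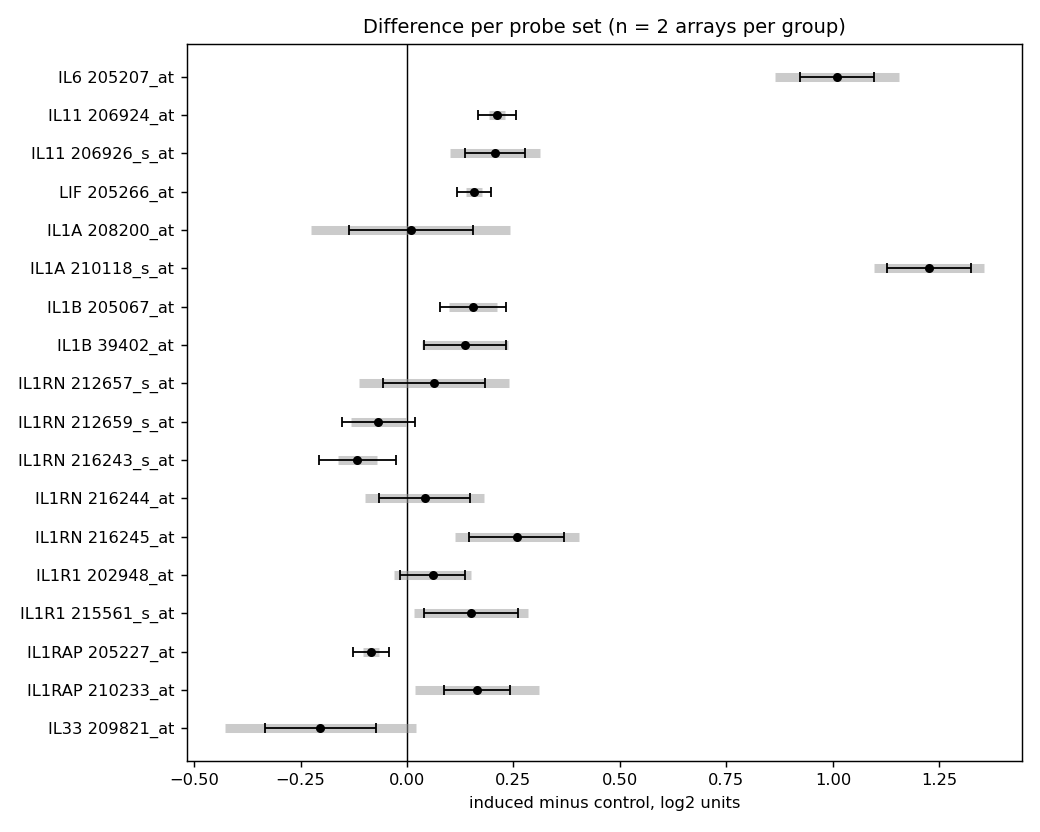
Induced minus control difference in log2 units (horizontal axis) for each member probe set (rows). Points are the differences of means, whiskers 1 limma standard error (n = 2 arrays per group), and grey bars run from the lowest to the highest difference between an induced and a control array. IL1A 210118_s_at (1.23) and IL6 (1.01) stand far to the right, and IL1A 208200_at (0.01) sits at 0.

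Over the 18 member probe sets, both induced arrays lay above both controls in 10, against 17.9% of all probe sets, and below both in 3, against 23.5%. The other 5 overlapped. All probe sets of IL6, IL11, LIF and IL1B were in the first group. After centring arrays on their medians the members stood at 11 above and 2 below, and the shares over all probe sets turned to 23.5% above and 18.4% below. By sign alone 14 were higher and 4 lower. With limma's moderated test and Benjamini-Hochberg adjustment over all probe sets, 0 of the 18 and 0% of all 54613 had an adjusted p under 0.05. At an unadjusted p under 0.05 stood 5 member probe sets, all higher, against 4.75% of all probe sets higher and 5.27% lower. Since the genes were chosen on this comparison, nothing is read from these counts.

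**Figure D3:**
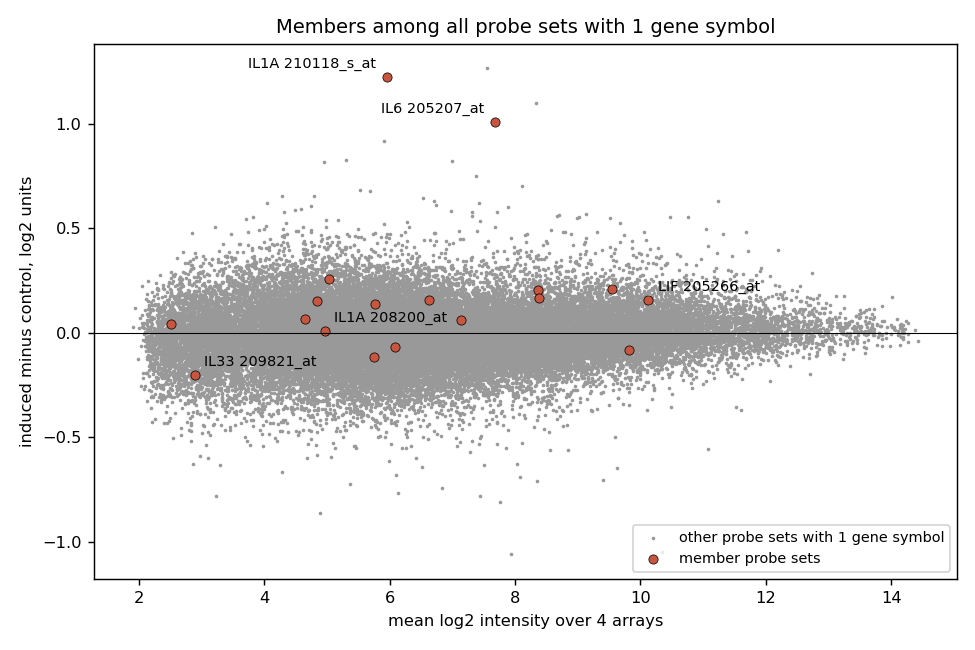
Induced minus control difference (vertical axis, log2 units) against mean log2 intensity over the 4 arrays (horizontal axis) for all probe sets with 1 gene symbol (grey) and the member probe sets (red). IL1A 210118_s_at and IL6 lie above nearly all grey points, at 1.23 and 1.01, and the other member sets lie between -0.20 and 0.26.

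The 4 arrays were alike in overall level. Array medians were 6.16 and 6.19 in control arrays against 6.15 and 6.15 in induced ones, and pairs of arrays correlated at 0.996 to 0.998 over probe sets. The probe set of WIF1 was near the floor, with 2.98 and 2.90 in control arrays against 2.93 and 3.03 in induced ones, so it gave no check of the labels, and its place relative to the expressed sequence is not known here. The 3' minus 5' difference of the ACTB control probe sets was -0.036 and 0.021 in control arrays against 0.033 and 0.11 in induced ones, and its part in the member differences was not tested. Glioma markers VIM (14.1 mean log2 intensity), NES (11.9), SOX2 (11.0) and S100B (11.5) were bright, while GFAP (5.66), PDGFRA (5.94), AQP4 (4.16) and CHI3L1 (4.32) were below the median of 6.16. At an unadjusted limma p under 0.05, 1 of the 14 listed was higher and 4 were lower, SOX2 and S100B among the lower. The shares over all genes were 6.48% and 4.73%. The log2 intensities of the 14 glioblastoma and astroglial markers summed to 121.71 and 122.24 in control arrays against 121.08 and 121.43 in induced ones, lower in both induced arrays, and their part in the results was not tested. The sums of the 12 measured leukocyte markers were 66.13 and 65.92 in control arrays against 65.42 and 66.20 in induced ones, which overlapped. On average 4 of these markers were brighter than 6.16: CD79A (7.01), CD3E (6.72), AIF1 (6.61) and CSF1R (6.56). The rest were dimmer, among them the pan-leukocyte gene PTPRC at 3.79. In bulk RNA, fewer cells of a type and less RNA per cell cannot be told apart.

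The genes whose 4 values followed IL6 most closely were found by the Euclidean distance between centred log2 values over the 4 arrays, on the brightest probe set of each of 19775 genes. They were SCG2, the neuropeptide precursor secretogranin II, at a distance of 0.20, S1PR1-DT at 0.24, the tetraspanin TSPAN2 at 0.27, IL1A at 0.28 and the cysteine-making enzyme CTH at 0.34. For IL1A they were CTH at 0.28, IL6 at 0.28, TSPAN2 at 0.32, the erythropoietin receptor EPOR at 0.40 and S1PR1-DT at 0.43. IL6 and IL1A, the latter read by 210118_s_at, were within the 5 nearest of each other. The distance was taken on the same values with which the members were chosen, so nothing is read from this nearness. The other IL1A set, 208200_at, differed by 0.01 and was not used. TSPAN2, which was in both lists, was at 5.47 and 5.43 in control arrays against 6.46 and 6.28 in induced ones. The measure uses size as well as shape, so all of the genes listed had differences of at least 0.816.

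Other genes of both pathways were taken from 11 lists by role, 134 of 143 of them measured. None passed the test: limma called 0 of 134, against 0% of all genes, at an adjusted p under 0.05. At an unadjusted p under 0.05, 17 were higher and 4 were lower, and the shares over all genes were 6.48% and 4.73%. The median difference of the 134 was 0.02, and that of all genes was -0.00.

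Among receptors of the interleukin 6 family 0 of 8 had an unadjusted p under 0.05, and the median was 0.02. IL6R, which binds IL6, was at 7.46 and 7.36 in control arrays against 7.63 and 7.49 in induced ones, a difference of 0.15 (SE 0.078, limma adjusted p = 0.553) that was 0.099 without control replicate 2 and 0.084 without induced replicate 1. The shared chain IL6ST differed by 0.10 (SE 0.064) in its brightest probe set, but its 7 sets ran from -0.50 to 0.10, and the brightest gave 0.012 without induced replicate 2. IL11RA differed by -0.14 (SE 0.083) in its brighter set and by 0.17 in the other. LIFR differed by -0.08 (SE 0.066), with 5 sets from -0.32 to 0.01, and OSMR, the oncostatin M receptor, by -0.02 (SE 0.042). The 5 measured other ligands of the family also had 0 at an unadjusted p under 0.05, with differences from -0.04 to 0.20.

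Downstream of IL6ST the JAK/STAT list held 1 of 12 genes at an unadjusted p under 0.05, the kinase JAK2 at -0.26 (SE 0.077, limma adjusted p = 0.472). The 3 probe sets of JAK2 ran from -0.26 to 0.08 and averaged -0.09. STAT3 was at 9.28 and 9.31 in control arrays against 9.36 and 9.22 in induced ones, a difference of -0.00 (SE 0.060). Its feedback target SOCS3 was at 7.17 and 7.30 in control arrays against 7.27 and 7.32 in induced ones, a difference of 0.06 (SE 0.077), with groups that overlapped. Its 4 probe sets ran from -0.32 to 0.06 and averaged -0.16, the opposite sign. Of 16 STAT3 and acute-phase targets 1 was higher at an unadjusted p under 0.05, the transcription factor CEBPB at 0.17 (SE 0.043, limma adjusted p = 0.472), and the median was 0.00.

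Of the other interleukin 1 ligands 0 of 7 stood at an unadjusted p under 0.05, and IL18 was dim, at 3.47 and 3.07 in control arrays against 3.06 and 2.99 in induced ones. The same count was 0 of 9 for the other receptors and binding proteins. Among them the decoy receptor IL1R2 was at -0.19 (SE 0.12), and at -0.41 in its other set. The IL33 receptor IL1RL1 was at -0.05 (SE 0.084), and its 4 sets ran from -0.05 to 0.19. In the list of processing and release, CASP1 was at 5.40 and 5.42 in control arrays against 5.33 and 5.44 in induced ones, a difference of -0.03 (SE 0.097). At an unadjusted p under 0.05 this list held 2 higher genes and 1 lower of 16: CASP8 at 0.18 (SE 0.058; its 3 sets ran from -0.01 to 0.34, and without control replicate 2 it was at 0.11) and, chosen after their values were seen, the dim NLRP3 at 0.25 and CASP5 at -0.31. The 3 sets of NLRP3 ran from 0.00 to 0.25. The adaptor MYD88 differed by 0.01 (SE 0.041), and of the 13 genes of interleukin 1 receptor signalling 1 was higher at an unadjusted p under 0.05, the kinase CHUK at 0.22 (SE 0.075), which was at 0.12 without control replicate 2.

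Target genes of interleukin 1 and NF-kappaB held 5 higher and 1 lower of 19 at an unadjusted p under 0.05, with a median of 0.06, and the shares over all genes were 6.48% and 4.73%. This list includes genes already known to be higher in these arrays and is not independent evidence of a direction. The chemokine CXCL8 was at 10.22 and 10.17 in control arrays against 10.66 and 10.84 in induced ones, a difference of 0.56 (SE 0.063, limma adjusted p = 0.227), and its other probe set also gave 0.56. The chemokines CXCL3 and CXCL1 differed by 0.38 (SE 0.070) and 0.29 (SE 0.050). The other genes at that p, named after their values were seen, were TNFAIP3, an inhibitor of NF-kappaB, at 0.31, the chemokine CCL2 at 0.22 and the dim CXCL6 at -0.43. NFKBIA, another inhibitor, was at 9.89 and 9.95 in control arrays against 9.94 and 9.88 in induced ones, a difference of -0.01 (SE 0.048).

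Of the 16 transcription factors known at the IL6 and IL1 promoters, at an unadjusted p under 0.05 there were 6 higher and 0 lower, with a median of 0.09. The shares over all genes were 6.48% higher and 4.73% lower. This list was chosen with earlier results of these arrays known and is not independent evidence of a direction. ATF3, a stress-induced factor, was at 8.84 and 8.85 in control arrays against 9.47 and 9.36 in induced ones, a difference of 0.57 (SE 0.055, limma adjusted p = 0.167), and its 3 probe sets ran from 0.15 to 0.57. IRF1 differed by 0.34 (SE 0.067; 0.15 in its other set) and the AP-1 subunit FOSL2 by 0.20 (SE 0.045), but the 5 sets of FOSL2 ran from -0.00 to 0.39. The other 3, named after their values were seen, were NFKB2 at 0.25, JUN at 0.16 and ATF4 at 0.10. The 3 sets of NFKB2 ran from 0.02 to 0.25 and the 4 of JUN from -0.05 to 0.26. Among 13 regulators of cytokine mRNA stability 2 were higher, KHSRP at 0.11 (SE 0.042) and HNRNPD at 0.10 (SE 0.027), and 1 was lower, the dim ZC3H12B at -0.33, which was named after its value was seen. The 4 sets of KHSRP ran from -0.07 to 0.11, the 9 of HNRNPD from -0.19 to 0.42 and the 2 of ZC3H12B from -0.33 to 0.09.

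**Figure D4:**
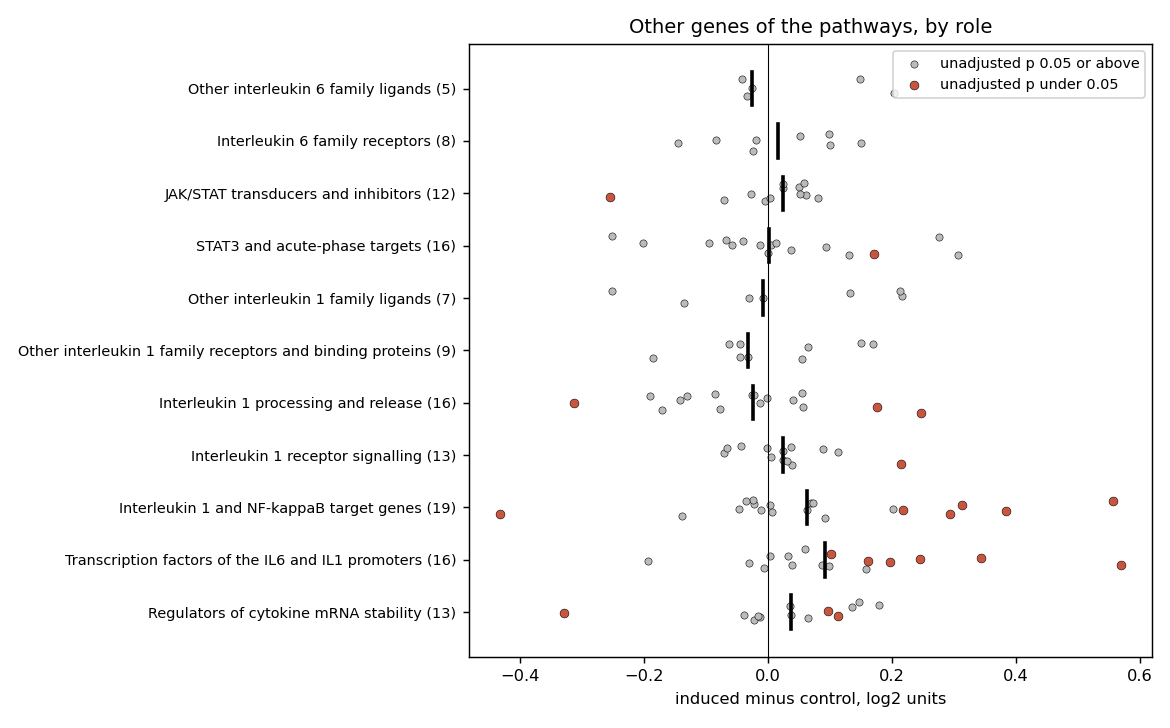
Induced minus control difference in log2 units (horizontal axis) of the measured genes of 11 lists (rows, number of genes in brackets), each gene by its brightest probe set, with red for an unadjusted limma p under 0.05 and black bars for list medians. Points are spread vertically at random, and medians run from -0.03 to 0.09.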

How the data were processed

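The authors deposited log2 intensities for each probe set. Per the submitters' processing notes they used RMA and affy, whose versions are not given in the sources used here. RMA corrects background, gives every array one intensity distribution and combines the probes of a set. Dim differences are therefore compressed, and a general shift would be hidden. The table has 54675 rows, and its 62 array controls were not tested.

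Groups came from sample titles. Differences were fitted with limma 3.58.1 in R 4.3.3 (lmFit, eBayes with intensity trend, 2-sided, Benjamini-Hochberg over 54613 probe sets, threshold 0.05). The total degrees of freedom were 6.27. Genes outside the family were represented by their brightest probe set. Up to 3 of smallest unadjusted p under 0.05 and a mean of at least 6.16 were named per list. Beside them 14 genes were named in any case: receptors and signalling genes, and also the ligand IL18, CASP1 and the chemokine CXCL8. The members and lists were chosen with earlier results of these data known, and the 3 motifs with the sequences seen. On simulated data (54613 probe sets, 200 changed, 10 simulations) the test recovered 18.7% of changes of 0.5 log2 units, 78.2% of 1 and 99.4% of 2. Each simulation mixed the 3 sizes in about equal numbers, and larger changes ease the adjusted cutoff for smaller ones. In the deposited data, gene differences by brightest probe set ran from -0.81 to 1.27, and 0 probe sets were called. The recovered shares therefore cannot be taken as the share of real changes found on these arrays. Alternatives were a replicate block, other eBayes priors, filters, scalings, averaged probe sets, a threshold of 0.1 and leaving out each array. The number of arrays limits the precision.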

Additional observations from a re-analysis of the deposited data

Results flagged for a closer look

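The array's own control features entered none of the tests above, and of their values only those of ACTB were given. Among the control features, the signal at the 3' end relative to the 5' end (log2 difference) of ACTB and GAPDH was greater in each induced array than in either control array. The mean excess was 0.0772 for ACTB and 0.0233 for GAPDH. The GAPDH values were -0.067 and -0.069 for control arrays against -0.043 and -0.047 for induced ones. Whether this contributes to the cytokine differences was not tested.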

How the results depend on the processing

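IL6 was higher by 0.90 to 1.12 log2 units under every alternative run. The IL1A set 210118_s_at was higher by 0.62 to 1.30, the low value being the average of its probe sets, under every one except the filter at the median, which removed it. The members were chosen on this same comparison, so the following counts of members describe the settings and test nothing about IL6 or IL1A. With an adjusted p under 0.05, limma called 0 of 18 member probe sets as deposited and also with a replicate block. It called 2 (IL6 and IL1A 210118_s_at) after centring arrays on their medians or cyclic loess, and 1 (IL6) of 9 genes after averaging probe sets. Over the whole table the calls were 2 with robust eBayes, 5 after centring, 11 after cyclic loess, 9 after averaging and 2 at a threshold of 0.1. Among pathway genes, 1 (ATF3) was called by its brightest probe set after cyclic loess, where the dimmer CXCL8 set was also called, and 1 (CXCL8) by the average of its sets. The causes were not tested. Groups without overlap numbered 6 higher and 1 lower among the 8 member sets at or above the median. The shares over all probe sets so filtered were 20.5% higher and 25.7% lower. Among 9 averaged genes, those without overlap numbered 6 higher and 0 lower, and the shares over all genes were 18% and 24.1%. On leaving out 1 array, member sets without overlap numbered 11 to 12 higher and 3 to 4 lower. The shares over all probe sets were then 30.0% to 33.9% and 36.1% to 40.8%.

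After averaging, the sign turned for IL1RN (0.0360), IL1RAP (0.0400), IL6ST (-0.144), IL11RA (0.0143), SOCS3 (-0.164), IL1RL1 (0.0716) and NFKBIA (0.00143). After centring it turned for OSMR (0.000911), STAT3 (0.0207) and NFKBIA (0.0141), and after cyclic loess for MYD88 (-0.00359). Leaving out 1 array gave -0.182 to 0.199 for IL1A 208200_at, -0.0289 to 0.158 for IL1RN 212657_s_at, -0.0439 to 0.126 for IL1RN 216244_at, -0.0737 to 0.0658 for STAT3, -0.00904 to 0.126 for SOCS3, -0.0974 to 0.00723 for IL1RL1, -0.0821 to 0.0301 for CASP1, -0.0102 to 0.0217 for MYD88 and -0.0447 to 0.0236 for NFKBIA. The labels do not say whether same-numbered replicates were paired. Deviations from the group means correlated at 0.0564 between same-numbered arrays, which cannot settle this with 2 arrays per group. The replicate block moved the count of probe sets at an unadjusted limma p under 0.05 from 5469 to 4424. No doxycycline control and 2 arrays per group are the main limits.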
